A study of Rattus norvegicus with 12 samples.

Results

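The comparison of HF with Sham set infarcted, failing left ventricle against the left ventricle of rats operated on without an infarct. Its members were the 3 Sham and the 3 HF rats, 6 of the 12 rats in the series, taken by the group named in the sample labels. Levels were examined for 18714 genes with a symbol. Genes without an Ensembl identifier and those with a provisional symbol, such as one starting with LOC, RGD or AABR, are not counted among genes with a symbol. All rats were male Sprague-Dawley rats that had surgery at 8 weeks of age. In the HF rats, which the labels call sedentary, the left anterior descending coronary artery was tied off, and in the Sham rats the thread was passed and not tied. Rats with an infarct were sorted into groups by ejection fraction 4 weeks later, and tissue was taken 12 weeks after surgery. The other infarcted rats ran on a treadmill (HFE) or received β-aminoisobutyric acid (BAIBA). By the study's methods, the Sham and HF rats of the BAIBA experiment were gavaged with water. Its supplement instead names Sham and HF groups as those given BAIBA in that experiment. Each library was made from 1 rat, from the anterior wall of the left ventricle. The study's methods place only the BAIBA tissue next to the infarct, while its results place the HF tissue there too, so the site of the HF tissue is uncertain. Infarct size and the share of scar in each piece were not given in the sources used here, and neither was the share of each cell type, so a smaller number of cells and less RNA per cell cannot be told apart in these bulk samples.

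Loss of muscle to an infarct leaves the surviving myocardium with a larger load. Failing rodent ventricle is known for a return of fetal gene expression, in which β-myosin heavy chain (Myh7) partly replaces α-myosin heavy chain (Myh6) and natriuretic peptides are made. It is also known for lower potassium and sodium channel expression, a shift in fuel use, fibrosis by activated fibroblasts and entry of immune cells.

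No gene passed the test between HF and Sham. Of the 34700 genes in the table, 14957 had enough counts to be tested, 12263 of them with a symbol, and the lowest adjusted p was 0.6255 (edgeR's quasi-likelihood test with Benjamini-Hochberg adjustment). With an unadjusted p under 0.05 there were 370 genes higher (2.47% of those tested) and 528 genes lower (3.53%) in HF. DESeq2 called 9 genes higher and 15 lower. The values of all 3 HF rats lay above those of all 3 Sham rats for 818 genes (5.47%) and below them for 938 genes (6.27%), and such genes are called apart in the text that follows. For a gene whose groups are apart, the exact permutation test over the 20 assignments of 6 rats gives p = 0.1, the smallest it can give. The median log2 fold change of all tested genes was 0.0088, with quartiles at -0.13 and 0.16, and 7764 genes were higher and 7193 lower. Levels are in CPM, counts scaled to library size after TMM normalization, with rats 1, 2 and 3 given in order, and log2 fold changes are HF against Sham ± standard error. Higher and lower describe levels, and none of the genes named was called by the main test.

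**Figure D1:**
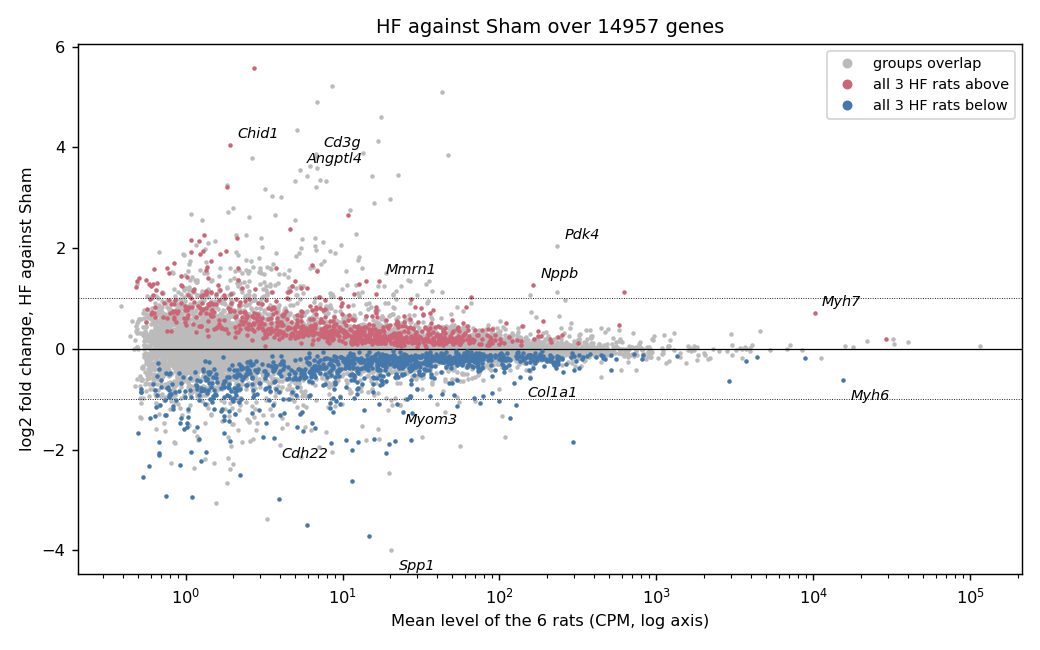
Mean level of the 6 rats (CPM, log axis) against the log2 fold change of HF over Sham for each of 14957 genes, with genes coloured where all 3 HF rats lay above or below all 3 Sham rats. Most genes lie near 0, Myh6 and Myh7 are the labelled genes of highest level, and genes with the largest fold changes mostly have overlapping groups.

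The tissue was heart muscle in every library, and rats within a group differed. HF rat 1 and Sham rat 3 stood apart in immune gene lists, and HF rats 1 and 3 on principal components. The summed level of 21 adult cardiomyocyte contractile genes was between 70760 and 73610 CPM in the Sham rats and between 62890 and 67060 CPM in the HF rats. That sum includes Myh6, its lowest member with a log2 fold change of -0.62, while the median of the 21 genes was -0.01. The sums therefore do not show that contractile genes as a group were lower in HF. In HF rat 1 the summed level of 17 lymphocyte markers was 512.8 CPM, against 53.5 to 74.9 CPM in the other 5 rats. Its T cell receptor subunit Cd3e was at 0.927, 1.04 and 1.18 CPM in Sham against 35.8, 0.988 and 1.12 CPM in HF, the co-receptor Cd8a at 2.38, 4.04 and 1.37 CPM in Sham against 81.4, 1.23 and 1.49 CPM in HF, and the proliferation marker Mki67 at 7.36, 5.99 and 8.03 CPM in Sham against 41.5, 5.25 and 4.95 CPM in HF. In Sham rat 3 the summed level of the 22 tested interferon response genes was 595 CPM, against 1071 and 1117 CPM in Sham rats 1 and 2. On the first principal component of the 500 most variable genes (37% of the variance), HF rat 1 lay at 39.98 and the other 5 rats between -22.5 and 1.3. On the second (30.8%), HF rat 3 lay at -28.56 and the other 5 rats between -14.84 and 22.43. With HF rat 1 left out, HF rat 3 lay at 35.7 on the first component, and the remaining rats lay between -22.81 and 3.54. Depth was 14879751 to 17465736 counts in the Sham rats and 16473490 to 19732588 counts in the HF rats, and the 13 mitochondrially encoded genes took 30.4% to 33.3% of the counts in these 6 rats. Counts of listed genes are followed by their range over the 6 fits that each left out 1 rat, in which the number of tested members can differ by a few, and such a fit is named where it ended or turned the direction.

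**Figure D2:**
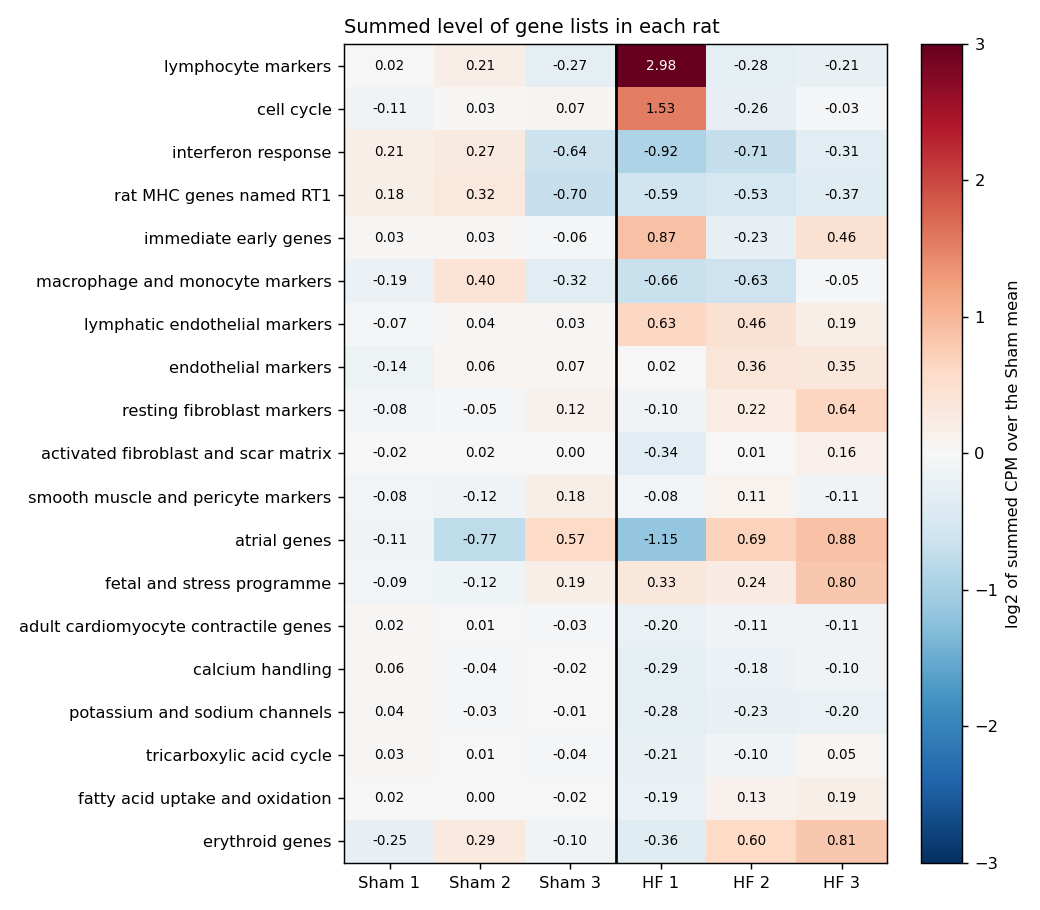
Summed CPM of the genes in each list, as log2 of the ratio to the Sham mean, in each of the 6 rats. HF rat 1 is at 2.98 for lymphocyte markers and 1.53 for cell cycle genes, and Sham rat 3 is at -0.64 for interferon response genes.

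The myosin heavy chains had the highest levels among genes with an unadjusted p under 0.05. Myh6, the fast α-isoform that makes up most myosin in the adult rat ventricle, was at 19680, 19070 and 17320 CPM in the Sham rats and 11220, 13960 and 11470 CPM in the HF rats, with a log2 fold change of -0.62 ± 0.12. Myh7, the slow β-isoform, was at 7474, 7755 and 7935 CPM in the Sham rats and 11750, 8626 and 17560 CPM in the HF rats, with a log2 fold change of 0.71 ± 0.24. Both genes were apart, Myh6 lower and Myh7 higher in HF. By FPKM, which accounts for gene length, Myh7 made up 27.9%, 29.3% and 31.8% of both isoforms together in the Sham rats and 51.6%, 38.6% and 60.9% in the HF rats. The mean share was 29.7 ± 1.99% in Sham and 50.4 ± 11.2% in HF (SD, 3 rats each), and the exact permutation test gave p = 0.1. The same share was 49.6% to 60.8% in the HFE rats and 16.6% to 20.6% in the BAIBA rats. The level of Myh6 itself was 9135, 11200 and 13250 CPM in the HFE rats and 12200, 18310 and 18120 CPM in the BAIBA rats.

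Mir208b, a miRNA gene within Myh7, was lower in HF while Myh7 was higher. Its level was 2.95, 5.86 and 5.48 CPM in the Sham rats and 1.72, 2.22 and 1.22 CPM in the HF rats, a log2 fold change of -1.47 ± 0.35, with HF below Sham in all 3 rats, from 51, 90 and 84 reads in Sham and 30, 36 and 23 reads in HF. The libraries were made from polyadenylated RNA, so these reads come from longer transcripts than the mature miRNA. Its mature miRNA and that of Mir208a, a gene within Myh6, are shown because they share a seed (bases 2 to 8, in capitals), from RefSeq on GRCr8:
rno-miR-208b-3p: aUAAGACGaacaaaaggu
rno-miR-208a-3p: aUAAGACGagcaaaaagc

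The direction of the fetal and stress programme as a list rested on single rats. Of 18 tested members 14 were higher and 4 lower, with a median log2 fold change of 0.14 (0.0088 over all genes). With an unadjusted p under 0.05, 3 of them were higher (2.47% over all genes) and none lower. Over the fits with 1 rat left out, 9 to 16 were higher and 1 to 6 of them passed that p, and without Sham rat 2 or without HF rat 3 the list was at 9 higher and 9 lower. Nppb, which encodes brain natriuretic peptide, was at 132, 46.6 and 109 CPM in the Sham rats and 204, 302 and 189.5 CPM in the HF rats, a log2 fold change of 1.26 ± 0.41. Every HF rat lay above every Sham rat. Rcan1, an inhibitor of calcineurin that calcineurin itself induces, was at 131, 111 and 196 CPM in Sham against 156, 363 and 439 CPM in HF. Its HF rat 1 lay within the Sham range, and its log2 fold change of 1.12 ± 0.42 became 1.45 without that rat. Ankrd1, a stretch-responsive muscle gene, was at 3589, 3293 and 5108 CPM in Sham against 4966, 5141 and 5367 CPM in HF. Nppa, the gene of atrial natriuretic peptide, was at 133, 16.9 and 373 CPM in Sham against 67.5, 456 and 511 CPM in HF. Its levels overlapped and varied more among the Sham rats than between the groups.

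**Figure D3:**
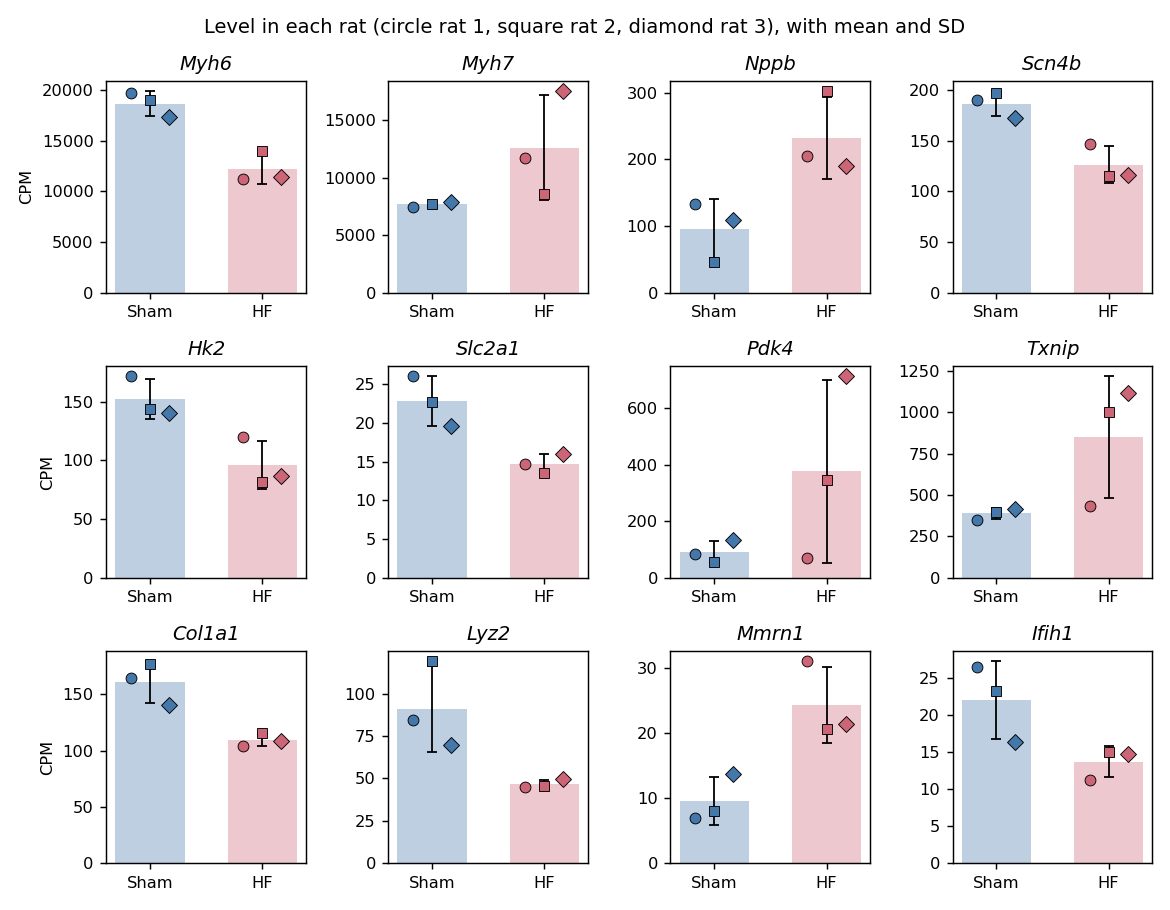
Level in CPM of 12 genes in the 3 Sham rats and the 3 HF rats (bars, mean; error bars, SD; symbols, single rats). Myh6, Scn4b, Slc2a1, Hk2, Col1a1, Lyz2 and Ifih1 are lower and Myh7, Nppb, Txnip and Mmrn1 higher in all 3 HF rats, while Pdk4 in HF rat 1 lies within the Sham range.

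The other sarcomere genes differed little. Of the 21 adult contractile genes 8 were higher and 13 lower (9 to 15 with 1 rat left out), and Myh6 was the member with an unadjusted p under 0.05. Tpm1, the tropomyosin of the thin filament, was lower in all 3 HF rats (log2 fold change -0.17 ± 0.09), while Actc1, cardiac α-actin, was at 0.08 ± 0.09. Myom3, a myomesin of the sarcomere's M band, was at 37, 23.4 and 31.1 CPM in the Sham rats and 17.8, 11.8 and 13.2 CPM in the HF rats, a log2 fold change of -1.10 ± 0.22. Art1, an ADP-ribosyltransferase of muscle cell surfaces, was at 18.4, 24.4 and 14.4 CPM in Sham against 10.6, 8.27 and 6.01 CPM in HF. Both were apart and were called lower by DESeq2, with adjusted p = 0.00412 for Myom3 and 0.0127 for Art1.

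Most potassium and sodium channel genes, pumps and their subunits were lower in HF. Of 25 tested members 20 were lower and 5 higher, and 8 were apart and lower (6.27% over all genes). At an unadjusted p under 0.05, 7 were lower (3.53% over all genes) and none higher. The median log2 fold change was -0.21. With 1 rat left out, 18 to 22 were lower and 3 to 7 of these passed that p, the fewest without HF rat 3, and 2 higher genes passed it without HF rat 1. Scn4b, an auxiliary β-subunit of the cardiac sodium channel, was at 190.3, 197 and 173 CPM in the Sham rats and 147, 115 and 116 CPM in the HF rats, a log2 fold change of -0.57 ± 0.12. It was apart, with HF below Sham. Kcnj3, a subunit of the acetylcholine-activated potassium channel, was at 32.7, 30.1 and 19.4 CPM in Sham against 20.2, 16.4 and 15.2 CPM in HF. Kcnj11 and Abcc9, the pore and the regulatory subunit of the ATP-sensitive potassium channel, had log2 fold changes of -0.23 ± 0.10 and -0.28 ± 0.12. The sodium pump subunit Atp1b1 was at -0.39 ± 0.10 and was apart.

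Most genes of calcium handling were lower in HF, with a median log2 fold change of -0.096 and members from -2.30 to 0.29. Of 19 tested members 15 were lower, and 3 of them were apart (6.27% over all genes). At an unadjusted p under 0.05 there was 1 lower gene (3.53% over all genes), a share near that of all genes. With 1 rat left out, 12 to 17 were lower and 0 to 4 of these passed that p. Pln, the inhibitor phospholamban of the calcium pump, was at 4086, 4138 and 3845 CPM in the Sham rats and 3631, 3173 and 3435 CPM in the HF rats, a log2 fold change of -0.24 ± 0.09. The pump itself, Atp2a2 (SERCA2), was at 9342, 9534 and 9445 CPM in Sham against 7509, 8073 and 9341 CPM in HF, and the kinase Camk2d at 176, 182 and 174 CPM in Sham against 167, 156 and 133 CPM in HF. All 3 HF rats were below all 3 Sham rats for each of these genes, although HF rat 3 lay near the Sham rats for Atp2a2. Tmem38a, a cation channel of the sarcoplasmic reticulum outside that list, was at 265, 255 and 246 CPM in Sham against 213, 207 and 202 CPM in HF. It was named after its values were seen. Gja1, the main gap junction protein connexin 43, was at 549.6, 569.5 and 331 CPM in Sham against 385, 388 and 442 CPM in HF, with overlapping groups. Of 13 intercalated disc genes 8 were lower and 5 higher, and none had an unadjusted p under 0.05, although 3 higher genes had it without HF rat 1.

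Genes of glucose uptake and of the first steps of its use were lower in HF. Of 28 tested genes of glucose uptake, glycolysis and glycogen 20 were lower and 8 higher. At an unadjusted p under 0.05, 4 were lower (3.53% over all genes) and none higher. All 4 were apart (6.27% over all genes were apart and lower). In the fits without 1 rat, 17 to 21 were lower and 2 to 5 of these passed that p, and 3 higher genes passed it without HF rat 1. The basal glucose transporter Slc2a1 (GLUT1) was at 26.1, 22.8 and 19.6 CPM in the Sham rats and 14.8, 13.6 and 16 CPM in the HF rats, a log2 fold change of -0.63 ± 0.14. The insulin-responsive transporter Slc2a4 (GLUT4) was at 315, 366 and 339 CPM in Sham against 313, 221 and 233 CPM in HF, a log2 fold change of -0.41 ± 0.14. Hexokinase Hk2, which traps glucose in the cell, was at 172, 144 and 141 CPM in Sham against 119.6, 81.5 and 87 CPM in HF, and phosphofructokinase Pfkm, the committed step of glycolysis, at 600.4, 598 and 559 CPM in Sham against 522, 505 and 513 CPM in HF.

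Pdk4, Angptl4 and Ucp3, 3 of the 31 tested genes of fatty acid uptake and oxidation, were high in HF rats 2 and 3 and not in HF rat 1. Pdk4, which blocks entry of pyruvate into the tricarboxylic acid cycle, was at 83.3, 57.2 and 132 CPM in the Sham rats and 68.9, 346 and 712 CPM in the HF rats. Angptl4, an inhibitor of lipoprotein lipase, was at 0.116, 0.976 and 1.44 CPM in Sham against 1.14, 10.4 and 17.9 CPM in HF, and the mitochondrial carrier Ucp3 at 3.48, 1.3 and 7.64 CPM in Sham against 4.63, 15.2 and 41.1 CPM in HF. Their log2 fold changes of 2.04 ± 0.85, 3.55 ± 1.15 and 2.29 ± 0.97 became 2.53, 4.08 and 2.76 without HF rat 1. Txnip, which restrains thioredoxin and glucose uptake, had the same shape, at 352, 399 and 415 CPM in Sham against 431, 1000 and 1120 CPM in HF. Its groups were apart, and its log2 fold change of 1.12 ± 0.34 became 1.44 without HF rat 1, with an adjusted p of 0.0127 (edgeR). Slc27a1, a fatty acid transporter, was at 71.3, 77.7 and 84.6 CPM in Sham against 78.9, 111 and 124 CPM in HF. Acsl1, which activates long-chain fatty acids, went the other way, at 856, 873 and 847 CPM in Sham against 707, 776 and 777 CPM in HF. Over the whole list 21 of 31 genes were higher, 2 of them with an unadjusted p under 0.05 (2.47% over all genes). At that p 1 gene was lower (3.53% over all genes). With 1 rat left out, 16 to 24 were higher and 0 to 9 of these passed that p. The most passed without HF rat 1, while without HF rat 3 the list was at 16 higher and 15 lower with none at that p.

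Genes of branched-chain amino acid breakdown were lower in HF, the subunits of its rate-setting complex and the kinase that inactivates it alike. Of 19 tested genes of branched-chain amino acid and BAIBA metabolism 15 were lower. At an unadjusted p under 0.05, 4 were lower (3.53% over all genes) and none higher. In the fits without 1 rat, 13 to 18 were lower and 1 to 5 of these passed that p, the fewest without Sham rat 2, and with a replicate block 2 passed it. Dbt and Bckdhb, subunits of the branched-chain ketoacid dehydrogenase, were at 162, 172 and 148 CPM in Sham against 132, 135 and 131 CPM in HF and at 125, 127 and 114 CPM in Sham against 106, 104 and 109.5 CPM in HF. Bckdk, the kinase that inactivates the complex, was at 136, 128 and 122 CPM in the Sham rats and 96.7, 103 and 108 CPM in the HF rats, a log2 fold change of -0.33 ± 0.09. Bcat2, the mitochondrial aminotransferase, was at 109, 131 and 104 CPM in Sham against 97.6, 99.9 and 97.4 CPM in HF, and Bckdha at 209.6, 227 and 229 CPM in Sham against 205, 198 and 183 CPM in HF. All 5 genes were apart, with HF below Sham (6.27% over all genes).

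Mitochondrial gene groups differed little between HF and Sham, and the directions of some of them rested on single rats. Of 16 tricarboxylic acid cycle genes 15 were lower and 1 higher, none with an unadjusted p under 0.05 and none apart, and without HF rat 1 the counts were 10 lower and 6 higher. Among genes of complexes II to V encoded in the nucleus 32 of 44 were lower and 6 were apart and lower (6.27% over all genes). Without Sham rat 3 this list was at 24 higher and 20 lower. Its member Cox7b was at 296, 311 and 302 CPM in Sham against 287, 272 and 256 CPM in HF. For complex I it was 23 lower and 21 higher of 44 (11 to 33 lower with 1 rat left out). Of the 13 genes encoded in mitochondrial DNA 11 were higher (8 to 13 with 1 rat left out), with a median log2 fold change of 0.07 and Mt-cyb at 27720, 27860 and 25370 CPM in Sham against 29170, 29160 and 34080 CPM in HF. Of 24 energy regulators and genes of mitochondrial dynamics 13 were lower and 11 higher (11 to 18 lower with 1 rat left out). At an unadjusted p under 0.05, 4 were lower (3.53% over all genes) and 1 higher (2.47%). Apart were 4 lower (6.27%) and 2 higher (5.47%) genes. Mfn1, which fuses mitochondria, was at 270.4, 254 and 253 CPM in Sham against 191, 226 and 218 CPM in HF, and Prkab1, a subunit of AMP-activated kinase, at 70.3, 82.4 and 70.5 CPM in Sham against 63.3, 53.1 and 60.9 CPM in HF. Both were apart, and so was Pparg, the fat-cell nuclear receptor, which was higher at 4, 6.05 and 5.55 CPM in Sham against 7.72, 8.58 and 7.23 CPM in HF. Among 74 genes of mitochondrial ribosomes 36 were higher and 38 lower (32 to 47 lower with 1 rat left out).

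The genes that the study measured by blot or PCR mostly overlapped. Of 16 tested, 8 were higher and 8 lower, and Mir208b was the gene with an unadjusted p under 0.05. Bax, which permeabilizes mitochondria in apoptosis, was at 9.32, 9.5 and 9.21 CPM in Sham against 8.63, 6.79 and 8.78 CPM in HF, lower in all 3 HF rats by a log2 fold change of -0.22 ± 0.15. Its inhibitor Bcl2 was at 6.31, 6.44 and 5.16 CPM in Sham against 5.66, 6.05 and 3.4 CPM in HF, with overlapping groups. Ppargc1a, a coactivator of mitochondrial genes, was at 35.6, 20.6 and 30.5 CPM in Sham against 28.1, 27.2 and 21.9 CPM in HF. The fatty acid transferase Cpt1b was at 0.09 ± 0.13 and Acadl, an acyl-CoA dehydrogenase, at 0.18 ± 0.13. The kinase subunits Prkaa1 and Prkaa2 were at -0.06 ± 0.11 and 0.02 ± 0.75, the latter with a range from 9.76 to 57.3 CPM among the Sham rats alone. Of 20 apoptosis genes 14 were higher and 6 lower, none with an unadjusted p under 0.05, and 4 were apart and higher (5.47% over all genes). Among these 4 were the death receptor Fas at 3.82, 2.67 and 3.4 CPM in Sham against 14.3, 3.89 and 4.63 CPM in HF and the initiator Casp8 at 7.53, 7.29 and 5.88 CPM in Sham against 12.2, 8.58 and 7.55 CPM in HF. HF rat 1, with its lymphocyte RNA, was the highest for both, and without it the log2 fold change went from 1.20 to 0.36 for Fas and from 0.45 to 0.22 for Casp8, and the list was at 12 higher and 8 lower. Without HF rat 2, 5 higher genes of the list had an unadjusted p under 0.05.

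More scar matrix genes were lower than higher in HF, a split that was lost without HF rat 1 and nearly lost without Sham rat 3. Of 31 tested genes of activated fibroblasts and scar matrix 20 were lower and 11 higher. At an unadjusted p under 0.05, 6 were lower (3.53% over all genes) and none higher. With 1 rat left out, 15 to 23 were lower and 1 to 5 of these passed that p. Without Sham rat 3, 16 were lower and 15 higher, with 2 lower genes at that p. Of 33 tested collagen genes 15 were lower and 18 higher (13 to 19 lower with 1 rat left out), with a median log2 fold change of 0.007. At that p, 2 collagen genes were lower (3.53% over all genes) and none higher. In each direction 2 were apart (6.27% lower and 5.47% higher over all genes). The main fibrillar collagen genes Col1a1 and Col3a1 were both apart and lower. Col1a1 was at 165, 177 and 140.2 CPM in the Sham rats and 104, 116 and 109 CPM in the HF rats, a log2 fold change of -0.56 ± 0.11, and Col3a1 at 591, 632 and 528 CPM in Sham against 378, 426 and 509.8 CPM in HF. The share of scar and the site of the HF tissue relative to the infarct were not measured in these files, and their part in the collagen levels was not tested. Postn, which activated fibroblasts secrete, was at 18.1, 12.9 and 10.8 CPM in Sham against 4.97, 6.6 and 12.6 CPM in HF, and fibronectin Fn1 at 47.5, 77 and 57.7 CPM in Sham against 32.1, 36.5 and 50.3 CPM in HF. Meox1, a transcription factor of activated fibroblasts, and Ddah1, an enzyme that breaks down an inhibitor of nitric oxide synthase, were apart and lower, with log2 fold changes of -0.86 ± 0.35 and -0.89 ± 0.31. Without HF rat 1 the list of activated fibroblasts and scar matrix was split, with 16 genes higher and 15 lower, 5 at that p in each direction. Ddah1 was then at -1.35 with an adjusted p of 0.0163 (edgeR). Cdh11, a cadherin of fibroblasts, was at 33.1, 46.6 and 23.1 CPM in the Sham rats and 14.3, 17.2 and 11.5 CPM in the HF rats, a log2 fold change of -1.26 ± 0.27, and DESeq2 called it (adjusted p = 0.00397). Most markers of resting fibroblasts did not share this direction, with 9 of 11 higher, although without HF rat 3 it was 5. At that p none of these markers was higher and 1 was lower (3.53% over all genes), and 2 were lower without HF rat 3. In each direction 1 marker was apart (5.47% higher and 6.27% lower over all genes). The aggrecanase family was mixed, with Adamts15 at 18.1, 17.1 and 22.9 CPM in Sham against 10.6, 13.5 and 12.1 CPM in HF and Adamts1 at 48.4, 48.2 and 36.2 CPM in Sham against 61.4, 74.9 and 101 CPM in HF. Both were apart. Tgfb1 was at 25.2, 22 and 23.1 CPM in Sham against 27, 26.8 and 28.8 CPM in HF.

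Most endothelial and lymphatic markers were higher in HF. Of 18 endothelial markers 16 were higher and 2 lower, with a median log2 fold change of 0.19. At an unadjusted p under 0.05, 3 were higher (2.47% over all genes) and none lower. With 1 rat left out, 12 to 18 were higher and 0 to 8 of these passed that p, none without Sham rat 1 and the most without HF rat 1. The water channel Aqp1 was at 426, 504 and 505 CPM in the Sham rats and 646, 541 and 823 CPM in the HF rats, a log2 fold change of 0.48 ± 0.16, and the VEGF receptor Flt1 at 166, 160.1 and 179 CPM in Sham against 181, 212 and 212 CPM in HF. Both were apart, as was the endothelial cadherin Cdh5 at 177, 204 and 206 CPM in Sham against 207, 224 and 242 CPM in HF. Of 7 lymphatic markers 6 were higher, 4 of them with an unadjusted p under 0.05 (2.47% over all genes). Mmrn1, an extracellular glycoprotein of lymphatic endothelium, was at 6.89, 8.07 and 13.8 CPM in the Sham rats and 31.1, 20.7 and 21.4 CPM in the HF rats, a log2 fold change of 1.35 ± 0.29, and DESeq2 called it (adjusted p = 0.00535). The lymphatic chemokine Ccl21 was at 12.6, 24.7 and 22.3 CPM in Sham against 69.9, 51.1 and 23.5 CPM in HF and the receptor Flt4 at 17, 18.8 and 21 CPM in Sham against 26.2, 29.9 and 19.8 CPM in HF, both with HF rat 3 within the Sham range. Reln was apart, at 2.38, 5.47 and 7.96 CPM in Sham against 11.5, 8.95 and 10.5 CPM in HF. The defining factor Prox1, which muscle cells also express, was at 64.3, 55.3 and 47.9 CPM in Sham against 42.6, 55 and 41.2 CPM in HF, and Lyve1 at 23.1, 22.3 and 22.3 CPM in Sham against 23, 16.2 and 32.5 CPM in HF. Their groups overlapped. Between the fits without 1 rat, 5 to 6 of the 7 markers were higher and 1 to 3 of these had an unadjusted p under 0.05, the fewest without HF rat 1 or HF rat 2. Ets1, an endothelial and lymphocyte transcription factor, was apart at 152, 145 and 159 CPM in Sham against 247, 225 and 201 CPM in HF, and Ppp1r16b, a phosphatase subunit of endothelial cells, at 11.8, 11.8 and 12.7 CPM in Sham against 23, 19.8 and 19.6 CPM in HF. Apln, the peptide apelin that endothelial cells secrete, was lower and apart at 19.3, 21.2 and 19.9 CPM in the Sham rats and 12.6, 12.3 and 8.3 CPM in the HF rats, a log2 fold change of -0.86 ± 0.17.

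Macrophage genes were lower in most members. Of 21 tested 17 were lower and 4 higher. At an unadjusted p under 0.05, 2 were lower (3.53% over all genes), and 5 were lower and apart (6.27% over all genes). The fits without 1 rat had 12 to 19 lower and 1 to 7 of these past that p, and without HF rat 2 the list was at 12 lower and 10 higher. Lyz2, the lysozyme of myeloid cells, was at 84.2, 119 and 69.7 CPM in the Sham rats and 44.8, 45.5 and 49.4 CPM in the HF rats, a log2 fold change of -0.97 ± 0.19. Aif1 was at 6.02, 6.7 and 6.46 CPM in Sham against 5.32, 3.89 and 3.88 CPM in HF, and the receptor Trem2 at 3.65, 4.49 and 3.33 CPM in Sham against 2, 2.9 and 2.82 CPM in HF. Each of these genes was apart. Spp1, osteopontin, was at 2.72, 109 and 3.72 CPM in Sham against 0.286, 6.36 and 0.692 CPM in HF and Gpnmb at 14.4, 52.3 and 14.9 CPM in Sham against 11.7, 7.96 and 15.4 CPM in HF. Both were high in Sham rat 2 alone among these 6 rats. Cd163, a marker of resident macrophages, was at 22.1, 12 and 17.9 CPM in Sham against 15.9, 22 and 41.5 CPM in HF, and its groups overlapped. The summed list was 316.9 to 523 CPM in Sham and 250.3 to 382.3 CPM in HF.

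All 11 lymphocyte markers tested were higher, with a median log2 fold change of 2.2, and none had an unadjusted p under 0.05. Without HF rat 1 the median was -0.33 and 9 of 11 were lower. The same rat set the result for proliferation genes, where 23 of 23 were higher with it and 20 of 23 lower without it, with Top2a at 4.58, 5.86 and 6.33 CPM in Sham against 52.2, 3.09 and 4.2 CPM in HF. It was also the highest HF rat for immediate early genes, of which 22 of 25 were higher with it and 14 without it. Of the genes with the largest fold changes among those apart, Sh2d1a, a lymphocyte adaptor, and the proliferation factors E2f8 and Mybl2 were high in HF rat 1, at 0.521, 0.391 and 0.131 CPM in Sham against 8.52, 0.679 and 0.798 CPM in HF, 0.405, 0.586 and 0.588 CPM in Sham against 4.57, 0.802 and 0.745 CPM in HF and 0.174, 0.586 and 0.588 CPM in Sham against 3.83, 0.679 and 0.638 CPM in HF.

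Interferon response genes were lower in HF in nearly every member. Of 22 tested 21 were lower and 1 higher, with 14 lower and none higher at an unadjusted p under 0.05, where 3.53% of all genes were lower at that p, and the median log2 fold change was -0.88. Sham rats 1 and 2 were high and Sham rat 3 lay near the HF rats, so 4 genes were apart and lower (6.27% over all genes). Ifih1, a sensor of double-stranded RNA, was at 26.5, 23.3 and 16.3 CPM in the Sham rats and 11.3, 15.1 and 14.7 CPM in the HF rats, a log2 fold change of -0.70 ± 0.20. The 2′-5′-oligoadenylate synthetase genes Oasl and Oas1a were at 9.15, 10.3 and 3.4 CPM in Sham against 1.6, 3.27 and 2.93 CPM in HF and 13.4, 14.1 and 10.5 CPM in Sham against 6.17, 3.89 and 9.41 CPM in HF, and Usp18, which removes the ubiquitin-like Isg15, at 41.6, 40.5 and 21 CPM in Sham against 18.9, 12.7 and 20.2 CPM in HF. Mx1, an antiviral GTPase, was at 69.7, 61.6 and 17.2 CPM in Sham against 13, 10.2 and 21.1 CPM in HF, Ifit3 at 34.7, 34.4 and 15.7 CPM in Sham against 12.3, 8.83 and 18 CPM in HF, and the transcription factor Irf7 at 115, 116 and 50.3 CPM in Sham against 30.9, 29.7 and 76 CPM in HF. For these 3 genes HF rat 3 lay above Sham rat 3. With 1 rat left out, 20 to 21 were lower and 3 to 19 of these had an unadjusted p under 0.05. The fit without Sham rat 3 gave the most, with 1 gene higher at that p, and the number was 3 or 4 without Sham rat 1, Sham rat 2, HF rat 1 or HF rat 2, and 4 with a replicate block. Levels were not uniform in the treated groups either, where Usp18 was at 11.9, 42.9 and 12.9 CPM in the HFE rats and 33.5, 22.9 and 15.8 CPM in the BAIBA rats. Oas1f, outside the list, was apart at 23.1, 29 and 18.3 CPM in Sham against 10.2, 8.58 and 14 CPM in HF, and DESeq2 called it (adjusted p = 0.0103). Among 23 tested MHC genes named RT1, 15 were lower and 8 higher, and without Sham rat 2 it was 11 lower and 12 higher. At an unadjusted p under 0.05, 3 were lower (3.53% over all genes) and none higher. Without Sham rat 3, 7 lower genes passed that p, and without HF rat 2 there were 4 lower and 2 higher. RT1-T24-4, a class I gene, was at 204, 216 and 104 CPM in the Sham rats and 80.8, 98.4 and 63.9 CPM in the HF rats, a log2 fold change of -1.11 ± 0.30, with HF below Sham in all rats, and RT1-S3 was at 124, 145 and 79.1 CPM in Sham against 61.2, 59.5 and 69.4 CPM in HF. Reads may be shared between the near-identical genes of the Mx, Ifit, Oas and RT1 families, so their single values are uncertain. Among chemokines, Cxcl13 was apart at 3.82, 4.56 and 2.94 CPM in Sham against 1.77, 1.11 and 1.75 CPM in HF, and Cxcl10 was at 7.07, 10 and 2.48 CPM in Sham against 3.54, 1.54 and 1.86 CPM in HF.

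**Figure D4:**
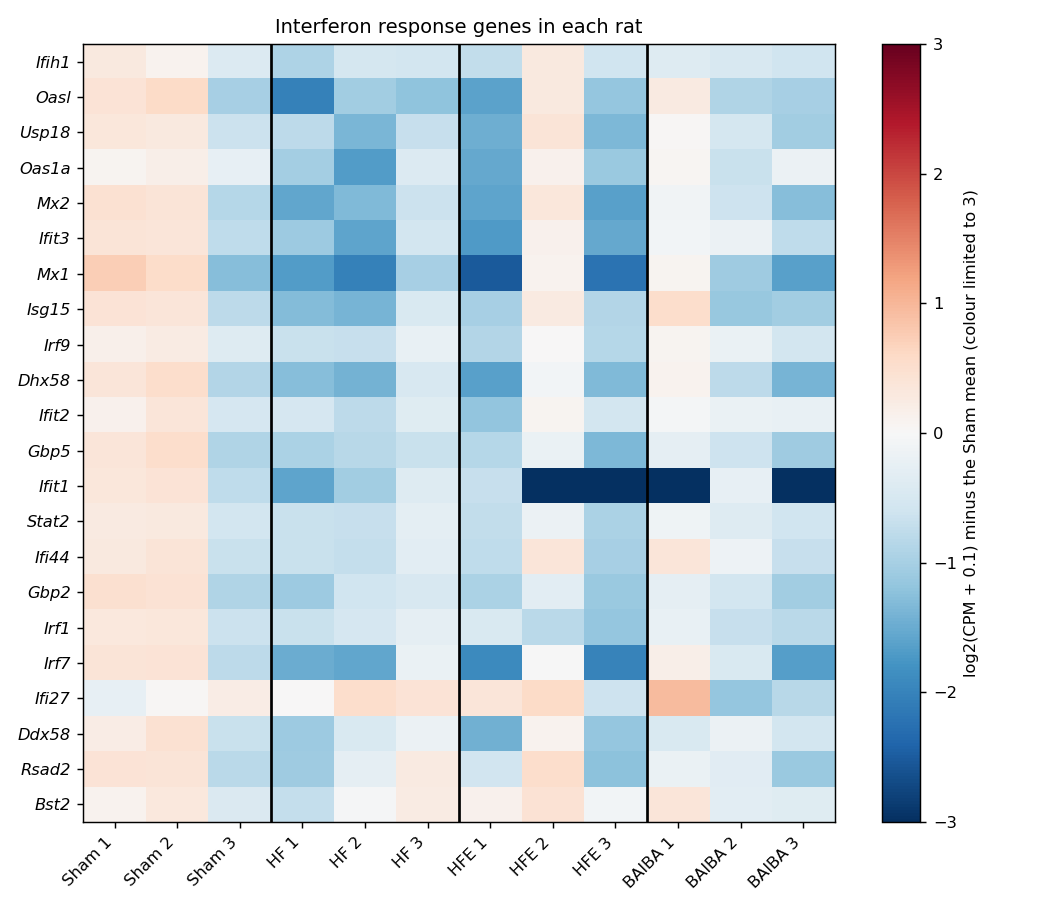
Level of 22 interferon response genes in each of the 12 rats, as log2(CPM + 0.1) minus the mean of the Sham rats, with colours limited to 3 in size. Sham rats 1 and 2, HFE rat 2 and BAIBA rat 1 are high for most genes, while Sham rat 3 and the HF rats are low, and Ifit1 is near 0 CPM in 4 treated rats.

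The promoters of 4 of these genes are shown because most of the listed genes with a promoter share a motif there. The element bound by interferon-activated factors was searched as GAAANNGAAA on either strand, read as TTTCNNTTTC on the other, with overlapping matches counted, in the 250 bases before each start in the RefSeq table of GRCr8. It was found in 10 of the 15 listed genes that had a promoter there (66.7%). Among the 9800 tested genes with a symbol and a promoter there the share was 2.64%. Over all 33469 promoters, which include untested genes and repeated symbols, it was 3.41%. A match describes the letters and not binding. Matches are in capitals, and each sequence runs 5′ to 3′ on its gene's strand:
Ifih1, minus strand, chr3:67683969-67684218: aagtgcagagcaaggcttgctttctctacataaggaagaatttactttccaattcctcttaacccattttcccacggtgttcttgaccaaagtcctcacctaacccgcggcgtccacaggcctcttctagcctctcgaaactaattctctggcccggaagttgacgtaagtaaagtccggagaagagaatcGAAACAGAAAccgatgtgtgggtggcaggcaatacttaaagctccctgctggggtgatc
Oas1a, plus strand, chr12:41330216-41330465: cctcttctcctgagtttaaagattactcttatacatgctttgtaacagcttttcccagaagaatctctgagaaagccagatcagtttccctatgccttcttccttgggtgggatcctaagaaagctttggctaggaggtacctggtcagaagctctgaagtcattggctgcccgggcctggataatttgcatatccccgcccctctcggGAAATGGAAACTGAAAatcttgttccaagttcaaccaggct
Ifit3, plus strand, chr1:241527076-241527325: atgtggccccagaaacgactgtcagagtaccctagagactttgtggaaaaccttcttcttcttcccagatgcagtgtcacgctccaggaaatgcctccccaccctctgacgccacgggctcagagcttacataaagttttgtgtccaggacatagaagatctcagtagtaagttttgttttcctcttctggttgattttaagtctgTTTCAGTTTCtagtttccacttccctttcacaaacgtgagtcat
Irf7, minus strand, chr1:205800024-205800273: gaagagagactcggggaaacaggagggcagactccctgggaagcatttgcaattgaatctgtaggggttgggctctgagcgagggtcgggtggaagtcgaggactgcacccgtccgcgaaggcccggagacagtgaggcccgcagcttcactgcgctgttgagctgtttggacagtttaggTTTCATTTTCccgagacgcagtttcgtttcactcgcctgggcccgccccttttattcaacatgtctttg
The promoters of Mx1 and Oasl in that table had no match in this window.

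Natriuretic peptide receptors, clock genes and other signals followed no common direction. Npr3, the clearance receptor for natriuretic peptides, was at 13.3, 16.8 and 17.2 CPM in the Sham rats and 8.12, 8.89 and 10.4 CPM in the HF rats, a log2 fold change of -0.79 ± 0.15, and Npr1, the signalling receptor, at 35.2, 41.3 and 40.1 CPM in Sham against 42.6, 46.7 and 58 CPM in HF. Npr3 was lower and Npr1 higher in all 3 HF rats. The β1-adrenergic receptor Adrb1 was lower and apart, at 4.69, 4.82 and 4.7 CPM in Sham against 4.12, 3.09 and 3.99 CPM in HF, and the growth factor Igf2 at 32.1, 52.2 and 28.8 CPM in Sham against 17.5, 25.7 and 21.8 CPM in HF. Over 22 neurohormonal genes 11 were higher and 11 lower (10 to 14 lower with 1 rat left out). Arntl, the core clock activator also named Bmal1, was at 4.69, 3.19 and 2.74 CPM in the Sham rats and 5.49, 11 and 8.4 CPM in the HF rats, a log2 fold change of 1.22 ± 0.31, and was apart. The clock output gene Dbp was at 132, 155 and 91.4 CPM in Sham against 114, 83.8 and 20.6 CPM in HF and the repressor Per3 at 98.5, 76.2 and 82.9 CPM in Sham against 78.1, 62.5 and 40.3 CPM in HF, both with overlapping groups. The time of day of tissue collection was not given in the sources used here.

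Other genes with a low unadjusted p and groups apart had varied functions. Ppp1r16b was the gene with the lowest p after Chid1 among those higher. Rrp12, a factor of ribosome assembly, was at 11.8, 11.8 and 12.2 CPM in Sham against 17.1, 18 and 21.3 CPM in HF. Tp53i11 was at 21.7, 20.4 and 20.7 CPM in Sham against 39.5, 42.9 and 29.7 CPM in HF, Cyp2d4, a cytochrome P450, at 4.46, 4.3 and 4.57 CPM in Sham against 7.26, 8.52 and 8.4 CPM in HF and Pex11a, which divides peroxisomes, at 2.84, 2.93 and 2.81 CPM in Sham against 4.52, 7.96 and 6.54 CPM in HF. Among the lower genes, Slc35c2, a transporter of the secretory pathway, was at 32.2, 37.8 and 36.1 CPM in Sham against 21.7, 14.2 and 18.9 CPM in HF, the microtubule-associated Mtus2 at 67.2, 60.9 and 55.4 CPM in Sham against 43.2, 36.2 and 36.3 CPM in HF, the actin nucleator Cobl at 11.3, 15.2 and 13.4 CPM in Sham against 7.72, 8.21 and 7.71 CPM in HF, and Klhl13, an adaptor of a ubiquitin ligase, at 19.1, 24.6 and 21.1 CPM in Sham against 11.8, 14.9 and 12.7 CPM in HF. The cadherin Cdh22 was at 5.44, 6.96 and 4.57 CPM in Sham against 1.37, 1.05 and 2.55 CPM in HF, and Hpd, of tyrosine breakdown, at 24.7, 29.1 and 26.2 CPM in Sham against 19.8, 16.2 and 18.6 CPM in HF. Slc43a2, an amino acid transporter, was higher and apart at 8.28, 10.9 and 12.3 CPM in Sham against 15.5, 21.9 and 29.4 CPM in HF, with an adjusted p of 0.0297 by DESeq2. All were apart.

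Some of the largest fold changes belonged to genes that were nearly absent in some rats. Chid1 was at 0.0579, 0.325 and 0.261 CPM in the Sham rats and 4.69, 2.47 and 3.67 CPM in the HF rats, from 1, 5 and 4 reads in Sham and 82, 40 and 69 reads in HF, and DESeq2 called it (log2 fold change 4.10, adjusted p = 3.52e-06). The treated rats were at 1.47, 1.32 and 0 CPM in the HFE rats and 0.281, 0 and 0.481 CPM in the BAIBA rats. One of the genes with the symbol Rpl7a, a ribosomal protein with many pseudogene copies, was at 6.25, 6.31 and 5.68 CPM in Sham against 146, 112 and 5 CPM in HF, and Capns1, a calpain subunit, at 1.33, 1.17 and 1.83 CPM in Sham against 9.32, 14.6 and 1.81 CPM in HF. Mff, a factor of mitochondrial division, was at 2.84, 28.6 and 1.57 CPM in Sham against 0.8, 1.3 and 0.798 CPM in HF. For Rpl7a the HF rats themselves differed, and Mff was high in Sham rat 2. Among the broad families, 113 of 230 solute carriers and 134 of 229 zinc finger genes named Zfp or Znf were higher, and 50 of 78 cytosolic ribosomal protein genes were. The last of these turned to 30 higher and 48 lower without HF rat 1 and to 24 higher and 54 lower without Sham rat 1.

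**Figure D5:**
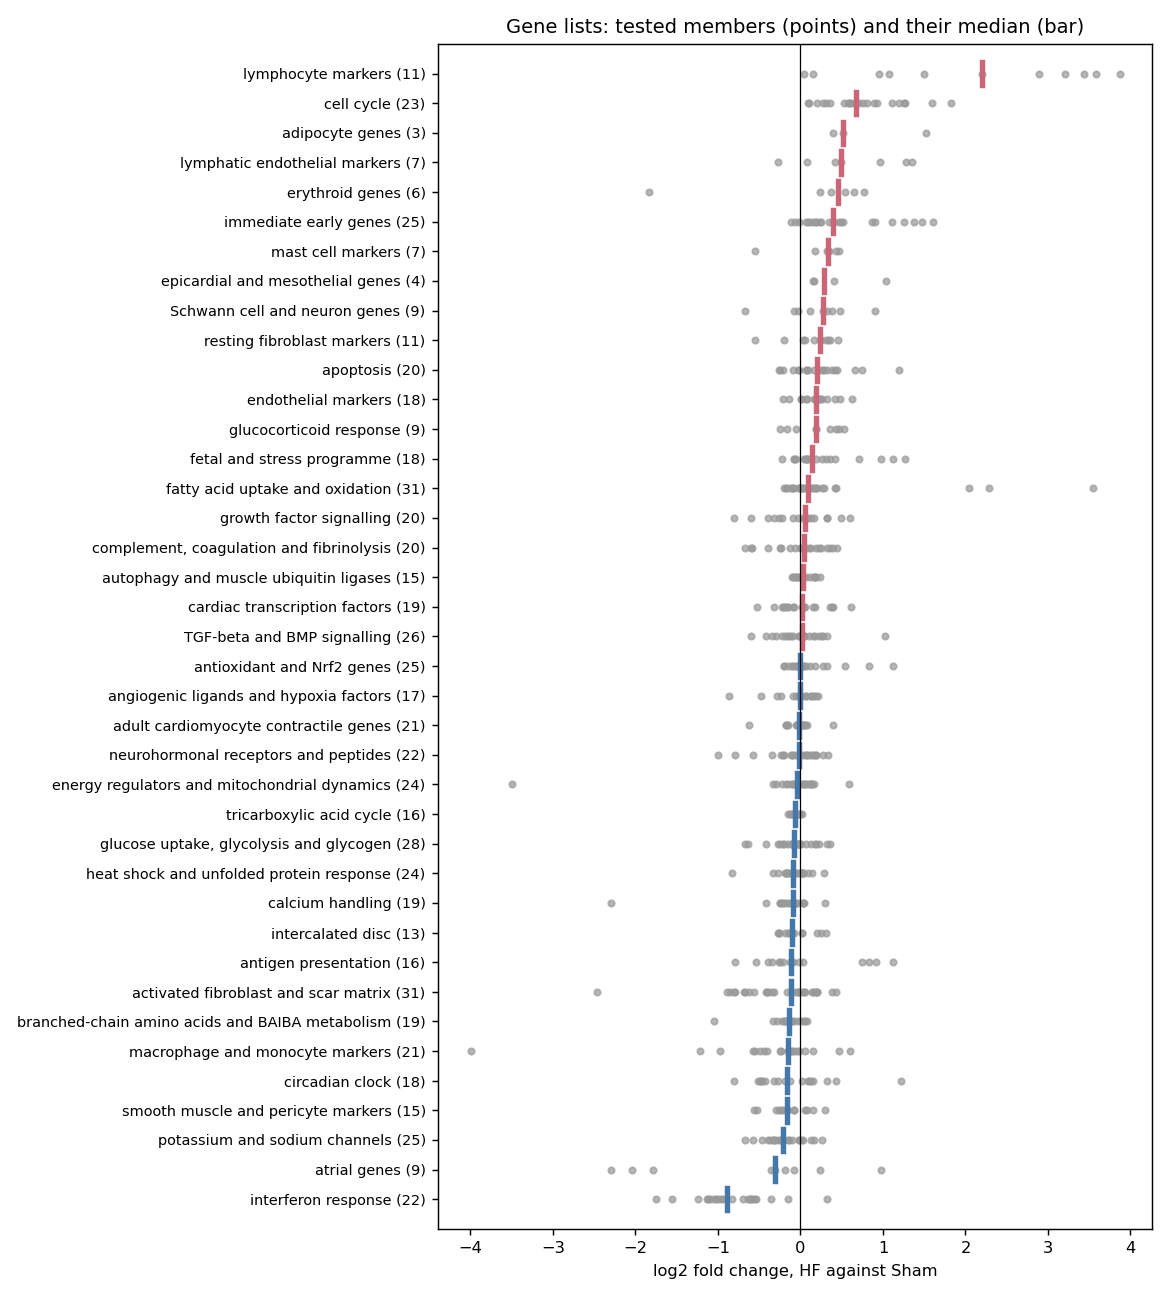
Log2 fold change of HF against Sham for the tested members of each gene list (points), with the list's median (bar) and its number of tested members in parentheses. Lymphocyte markers have the highest median (2.2) and interferon response genes the lowest (-0.88), and medians of most other lists lie within 0.5 of 0.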

How the data were processed

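Libraries were paired-end, from messenger RNA bound to oligo (dT) beads, 1 per rat. The authors aligned filtered reads with HISAT2, assembled transcripts with StringTie and Gffcompare, and assigned reads to genes with featureCounts, which gave the deposited counts, raw whole numbers per gene. The deposited FPKM were computed by the authors from these counts and the gene lengths. Tool versions, annotation and strand setting were not given in the sources used here. The processing notes of the submitters name a mouse build, mm9, whereas gene identifiers are of the rat, so no positions of counted genes are given. Another deposited table repeats these counts and FPKM (416400 values of each, 0 differences) and gives symbols.

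The 3 HF and 3 Sham rats, grouped by their labels, were compared in R 4.3.3 with edgeR 4.0.16 (TMM, filterByExpr, robust quasi-likelihood fit). Genes were called at a Benjamini-Hochberg adjusted p under 0.05 with a log2 fold change beyond 1 in either direction. The standard error is the size of the log2 fold change over the root of F. The exact permutation test was two-sided, on log2(CPM + 0.1). CPM used TMM factors of all 12 rats. Principal components were taken from log2 CPM (prior count 2). The members, gene lists and named genes were chosen with earlier results of these data known, and lists are described without a set test. The rule for names took, among genes with a symbol, apart and with a mean of at least 1 CPM, up to 15 a direction by p and 8 by fold, then in each list 4 members by p and 2 by level, then Mir208b, Myh6, Myh7 and genes that the study measured by blot or PCR, of which some are not reported here. Outside the rule, and named after their values were seen, were Abcc9, Actc1, Adrb1, Art1, Bcat2, Bckdha, Capns1, Cd163, Cdh11, Cxcl10, Dbp, Gja1, Gpnmb, Ifit1, Ifit3, Irf7, Kcnj11, Lyve1, Meox1, Mki67, Mx1, Myl7, Postn, Spp1, Tmem38a, Top2a and Ucp3. The scripts were tested on simulated counts. P-values of the main fit set the difference between 3 and 3 rats against the variation among rats within a group.

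Alternatives were RLE normalization, library size alone, DESeq2 1.42.0, a filter of 1 count in total, all 12 rats in the fit, a filter of 10 counts in every library, a replicate block, each rat left out, limma 3.58.1 on log2(FPKM + 1) or log2(FPKM + 0.1) with a mean FPKM of 0.1 or more, no genes without an Ensembl identifier, an unadjusted p, and no fold limit. A fit without HF rat 1 and Sham rat 3 was added after seeing the data. Sequences are from RefSeq on GRCr8.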

Additional observations from a re-analysis of the deposited data

How the results depend on the processing

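The main test called 0 genes in either direction, as did RLE normalization, library size alone, both other filters, the fit of all 12 rats, limma on either FPKM scale, the fit without genes lacking an Ensembl identifier and the rule without a fold limit. DESeq2 called 9 genes higher and 15 lower, and an unadjusted p with the fold limit gave 90 and 101. Same-numbered Sham and HF rats did not deviate together (correlations of -0.062, -0.081 and 0.079), so their numbers were not taken as pairs, and the fit with a replicate block called 0 genes, with 328 higher and 430 lower at an unadjusted p under 0.05. With each rat left out in turn, 0 to 2 genes were called higher and 0 to 2 lower, and 205 to 650 were higher and 275 to 647 lower at an unadjusted p under 0.05. Without HF rat 1 these calls were Txnip, Slc6a6 and Ddah1 and a gene with no symbol, without Sham rat 3 LOC100911575 and a gene with no symbol, without HF rat 2 RGD1563601, and without HF rat 3 Rpl7a. With HF 1 and Sham 3 both left out, 5 genes were called higher, among them Slc6a6, Txnip, Rasa4 and Rcan1, and 4 lower, and 863 and 816 genes had an unadjusted p under 0.05. These genes were named after their values were seen, and the cause of the differences was not tested.

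Log2 fold changes of 7 named genes changed sign when a rat was left out. Cd8a ranged from -0.93 to 3.99, Cpt1b from -0.020 to 0.20, Lyve1 from -0.20 to 0.29, Mki67 from -0.49 to 1.71, Ppargc1a from -0.37 to 0.012, Prkaa2 from -0.62 to 0.50, with -0.43 without Sham rat 2, and Top2a from -0.62 to 2.33. Without both HF 1 and Sham 3, Cd8a was at -1.21, Mki67 at -0.38 and Top2a at -0.50.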

Other observations

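Among genes of the atria 7 of 9 tested were lower in HF (6 to 7 with 1 rat left out), none with an unadjusted p under 0.05. The atrial light chains differed between single rats. Myl7 was at 27.4, 11.4 and 40.4 CPM in Sham and 0.743, 2.35 and 19.8 CPM in HF, and Myl4 at 20.2, 1.63 and 19.5 CPM in Sham and 1.31, 1.23 and 7.45 CPM in HF. Sarcolipin (Sln), a regulator of the calcium pump in atria, was at 3.65, 0.716 and 5.62 CPM in Sham and 0.0572, 0.0617 and 1.86 CPM in HF. HF rats 1 and 2 lay below all Sham rats for each gene, while HF rat 3 lay within the Sham range. Of 6 tested erythroid genes 5 were higher (4 to 5 with 1 rat left out), none with an unadjusted p under 0.05. Haemoglobin Hbb was at 130.5, 196 and 227 CPM in Sham and 126, 243 and 504 CPM in HF, with HF rat 1 below the Sham rats.

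Of 24 tested genes of the heat shock and unfolded protein response 17 were lower (14 to 21 with 1 rat left out). Of these, 3 were apart (6.27% over all genes) and none had an unadjusted p under 0.05. Atf4, a transcription factor of the integrated stress response, was at 123, 119.6 and 114 CPM in Sham and 99.9, 101 and 113 CPM in HF. Of 25 antioxidant genes 11 were higher and 14 lower (9 to 18 lower with 1 rat left out). The metallothionein Mt2A, which binds metal ions, was apart and higher, at 3.24, 5.21 and 6.07 CPM in Sham and 8.63, 10.7 and 6.54 CPM in HF. Trim54, a ubiquitin ligase of the sarcomere, was apart and higher, at 215, 222 and 213 CPM in Sham and 249, 256 and 266 CPM in HF. Hormone-sensitive lipase (Lipe), which releases fatty acids from stored fat, was higher in all 3 HF rats, at 46.3, 49.1 and 49.8 CPM in Sham and 54.6, 82.8 and 70.5 CPM in HF. Kit, the receptor for stem cell factor that mast cells carry, was lower in all 3 HF rats, at 26.5, 27 and 23.6 CPM in Sham and 16.2, 21.9 and 14.6 CPM in HF, while 6 of 7 mast cell markers were higher with all rats and 6 of 7 were lower without HF rat 1. Ackr2, a scavenger receptor for chemokines, was apart and higher, at 1.97, 1.17 and 1.96 CPM in Sham and 2.52, 3.7 and 5.42 CPM in HF. None of the genes in these paragraphs was called by edgeR's quasi-likelihood test.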
